A study of Rattus norvegicus with 6 samples.

Results

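The serine-threonine protein phosphatases of the rat left ventricle were compared between 3 diabetic and 3 normal hearts. The members were all genes whose probe sets carried a single annotation symbol of the PP1 to PP6 subunit series (Ppp followed by its number) or of the PP2C series (Ppm1), leaving out Ppp1r1a and Ppp1r3c. The array held 86 such probe sets for 68 of the 10411 genes it names singly, and each gene was read through its brightest probe set by mean signal over the 6 arrays. PP1 gave 30 genes, PP2A 14, calcineurin (also called PP2B) 5, PP4 5, PP5 1, PP6 4 and the PP2C family 9. The diabetic group was the left ventricle of 3 rats labelled diabetic and the normal group that of 3 rats labelled normal, counted in the design text as separate control animals. Total RNA of each heart was hybridised to its own single-colour Affymetrix array. The labels name no strain, sex, age, diet or duration, and no agent or genotype behind the diabetes, so the model is known here only by that word. No culture, transgene or pooling is mentioned for either group.

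Protein phosphatases remove the phosphate groups that kinases place on serine and threonine. PP1 and PP2A do most of this work in the heart: a small set of catalytic subunits is joined to many regulatory subunits that choose the place and the substrate, among them phospholamban and the ryanodine receptor of the sarcoplasmic reticulum. Calcineurin is switched on by calcium and calmodulin and dephosphorylates NFAT transcription factors, a route known for cardiac hypertrophy. The PP2C enzymes act as single chains without such subunits.

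No phosphatase gene passed the test in either direction. Of the 68 genes, 58 were bright enough to be tested, and limma called 0 risen and 0 fallen at a Benjamini-Hochberg adjusted p under 0.05 over all 9519 tested probe sets. Of all tested probe sets, 2.88% passed, 1.5% as risen and 1.38% as fallen. None of the 70 tested member probe sets passed either, the dimmer ones included. The adjusted p nearest to the threshold among the 58 genes was 0.112, for Ppp1r16b. At an unadjusted p under 0.05 there were 8 members, 13.8% of those tested against 19.9% of all tested probe sets, with 1 higher (9.54% of all) and 7 lower (10.3% of all) in the diabetic hearts. The 3 diabetic and 3 normal arrays did not overlap for 12 members, 20.7% against 25.7% of all, with 5 higher (12.1% of all) and 7 lower (13.6% of all). An absolute log2 fold change of at least 0.5 was reached by 5 members, 8.62% against 14.1% of all.

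The smallest absolute log2 fold change that passed anywhere on the array was 0.62, and the median of those that passed was 1.05. The median absolute fold change of the phosphatase genes was 0.17 on the log2 scale, against 0.20 for all tested probe sets, and 1 member alone, Ppp1r14c, lay beyond 0.62. The 95% interval of the fold change reached 0.40 to either side at the median. It stayed within 1 log2 unit of no difference for 53 of the 58 genes and within 0.5 for 21. The 5 whose interval reached 1 were Ppp1cc, Ppp1r14a, Ppp1r14c, Ppp3cb and Ppm1j. A missed threshold does not show that such genes are equal between the groups.

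**Figure D1:**
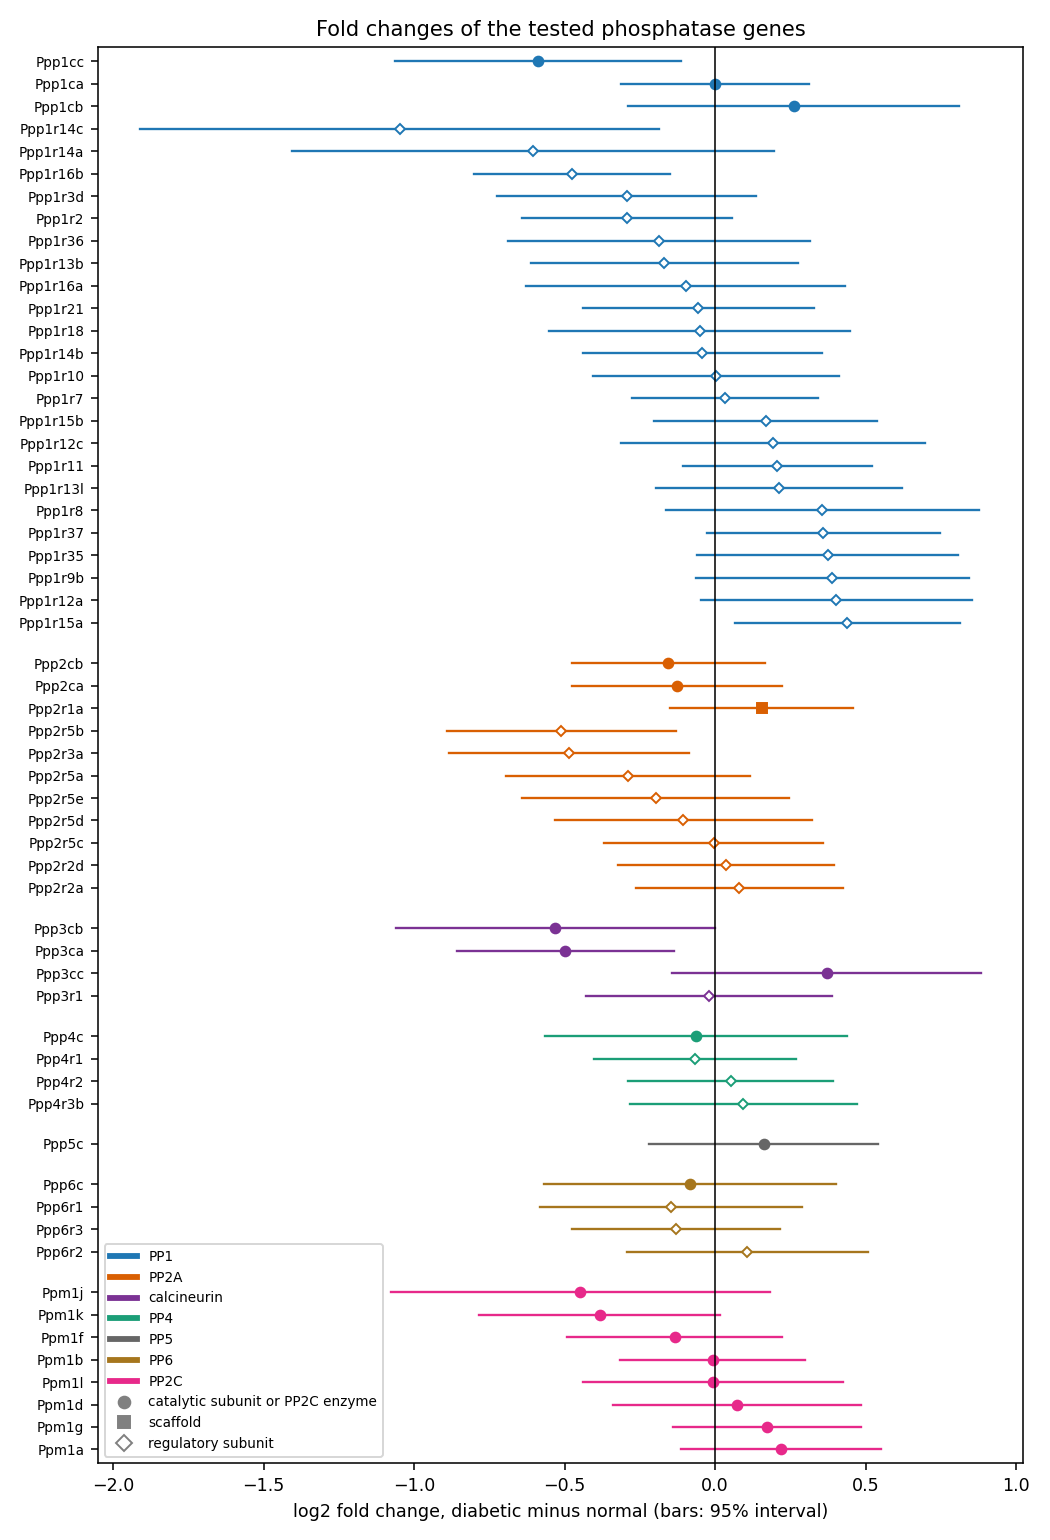
Log2 fold changes of the 58 tested phosphatase genes, diabetic minus normal, on the x axis, with 95% intervals from limma as bars and genes grouped by family down the page. Filled circles are catalytic subunits or PP2C enzymes, the square is a scaffold and open diamonds are regulatory subunits. Most intervals cross 0, Ppp1r14c has the widest shift at -1.05, and no gene passed the adjusted threshold.

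Promoters of the catalytic subunits were read, and 4 of them are shown. RefSeq sequences of build GRCr8 were matched for 9 of the 11 catalytic genes. The 250 bases before the start site of Ppp1cc, Ppp3ca and Ppp3cb, the catalytic genes whose diabetic and normal arrays did not overlap, are given with those of Ppp1ca, whose fold change was nearest to 0. These 3 genes without overlap were 27.3% of the 11 catalytic genes, near the 25.7% of all tested probe sets. Capitals mark the core letters of a GC box, GGGCGG or its reverse complement CCGCCC, counted on both strands with overlapping matches allowed.
Ppp1cc (chr12:40061302-40061551, minus strand): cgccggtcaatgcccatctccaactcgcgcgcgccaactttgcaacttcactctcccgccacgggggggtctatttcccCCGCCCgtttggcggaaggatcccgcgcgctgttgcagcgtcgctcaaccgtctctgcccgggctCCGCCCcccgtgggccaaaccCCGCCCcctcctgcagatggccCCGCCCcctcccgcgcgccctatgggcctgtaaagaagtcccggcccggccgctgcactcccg
Ppp3ca (chr2:227839357-227839606, plus strand): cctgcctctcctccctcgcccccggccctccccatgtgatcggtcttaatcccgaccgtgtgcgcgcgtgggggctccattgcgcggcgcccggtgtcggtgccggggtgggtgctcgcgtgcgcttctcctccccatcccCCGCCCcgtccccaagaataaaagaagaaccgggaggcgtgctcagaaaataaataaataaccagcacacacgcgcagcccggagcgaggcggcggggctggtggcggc
Ppp3cb (chr15:3809012-3809261, plus strand): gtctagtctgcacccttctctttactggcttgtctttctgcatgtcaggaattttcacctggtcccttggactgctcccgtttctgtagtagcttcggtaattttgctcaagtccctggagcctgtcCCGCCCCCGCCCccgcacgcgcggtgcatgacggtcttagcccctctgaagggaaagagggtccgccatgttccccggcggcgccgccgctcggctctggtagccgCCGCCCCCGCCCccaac
Ppp1ca (chr1:210914326-210914575, plus strand): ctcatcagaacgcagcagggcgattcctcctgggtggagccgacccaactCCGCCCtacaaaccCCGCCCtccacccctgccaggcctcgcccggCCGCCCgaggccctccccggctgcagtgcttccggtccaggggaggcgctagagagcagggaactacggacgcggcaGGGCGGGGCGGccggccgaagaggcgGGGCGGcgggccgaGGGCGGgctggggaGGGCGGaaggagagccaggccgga
The GC box core occurred 4 times before Ppp1cc, 1 time before Ppp3ca, 4 times before Ppp3cb and 8 times before Ppp1ca, and it was present in 30.5% of 33469 promoters of the same length. None of the 4 held the TATA box letters TATAAA, found in 12.9% of all. The NFAT core letters GGAAA, read as TTTCC from the other strand, occurred 1 time each before Ppp1cc and Ppp3cb and not before Ppp3ca or Ppp1ca, against 56.9% of all promoters with a match. GC content was 71.2% for Ppp1cc, 68% for Ppp3ca, 62.8% for Ppp3cb and 75.2% for Ppp1ca, with a median of 51.2% over all promoters. Among the matched promoters not shown, the GC box core occurred 3 times before Ppp1cb and 1 time before Ppp2ca. It occurred 0 times before Ppp4c, Ppp5c and Ppp6c. A match is a description of letters in these windows and marks no bound site.

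None of the 3 PP1 catalytic isoforms passed, with log2 fold changes of 0.00 for Ppp1ca, 0.26 for Ppp1cb and -0.59 for Ppp1cc. Ppp1ca, the alpha isoform, had a signal intensity of 3011, 3314.2 and 3104.6 in diabetic hearts 1, 2 and 3, against 2971.4, 3102.8 and 3369.7 in normal hearts. Its groups overlapped almost completely, with a log2 fold change of 0.00 and a 95% interval from -0.31 to 0.31. Ppp1cb, the beta isoform (also called delta), had 995.6, 1433 and 1700.5 in diabetic hearts, against 1328.9, 1263.9 and 833 in normal hearts. Its groups overlapped as well, since diabetic heart 1 lay below normal hearts 1 and 2 (log2 0.26 ± 0.24, SE, limma adjusted p = 0.603). Ppp1cc, the gamma isoform, had 1719, 1552.6 and 2014.8 in diabetic hearts, against 2527.5, 2069.5 and 3520.1 in normal hearts. Every diabetic heart lay below every normal heart, at a log2 fold change of -0.59 ± 0.21 (adjusted p = 0.164). Normal heart 3 stood above the other normal hearts for Ppp1cc and below them for Ppp1cb, and without it the fold changes were -0.38 for Ppp1cc and 0.05 for Ppp1cb. In a ventricle measured in bulk, fewer cells of a type and less RNA per cell cannot be told apart, for these genes and all that follow.

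**Figure D2:**
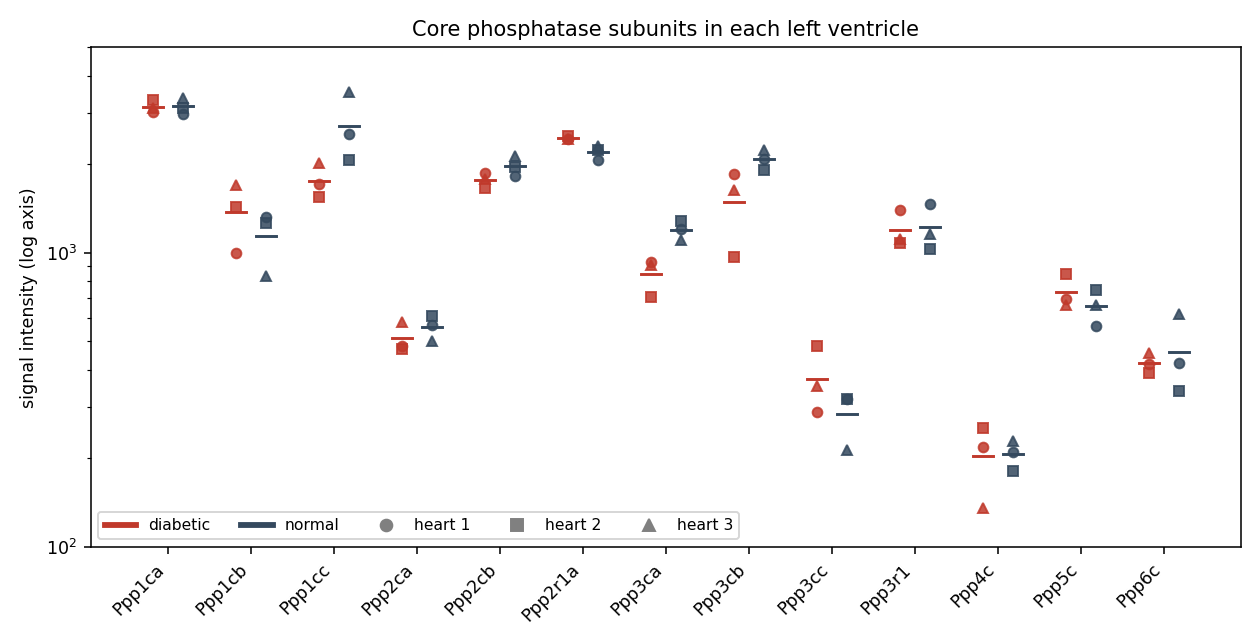
Signal intensity on a log axis for 13 core subunits, with 1 point per heart, diabetic left of normal, and the group mean as a short line. Point shape gives the heart's number within its own group. The diabetic points of Ppp1cc, Ppp3ca and Ppp3cb all lie below the normal ones, those of Ppp2r1a all lie above, and the other genes overlap.

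The PP1 regulatory subunits ran from -1.05 to 0.44. Of 27 genes, 23 were tested, 12 with a positive and 11 with a negative fold change, and their median was 0.00. Ppp1r16b (TIMAP), a membrane-anchored subunit known from endothelium, had 490.6, 431.4 and 444.5 in diabetic hearts, against 663.8, 681.1 and 577.3 in normal hearts. No array overlapped, and the log2 fold change was -0.48 ± 0.14 (limma adjusted p = 0.112), staying between -0.55 and -0.43 with any 1 heart left out. Beside it, of 5 endothelial markers 1 fell, Tie1 (log2 -0.94, adjusted p = 0.0223), and 4 did not pass. Pecam1 lay at 0.68, Flt1 at 0.33, Vwf at 0.26 and Kdr at -0.04. The summed endothelial signal was 4425.6 to 5147.5 in diabetic and 4481.1 to 5067.9 in normal hearts, so it overlapped, and its part in the Ppp1r16b difference was not tested.

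Ppp1r15a (GADD34), which brings PP1 to the translation factor eIF2 alpha during stress, was the member with the highest positive fold change. It had 1182.8, 1099 and 1070.6 in diabetic hearts, against 992.4, 794.1 and 698.1 in normal hearts (log2 0.44 ± 0.17, adjusted p = 0.185). The diabetic hearts were all higher. Its constitutive relative Ppp1r15b (CReP) overlapped between groups, at 0.17 ± 0.16. Ppp1r11, an inhibitory subunit of PP1, and Ppp1r37 also had every diabetic heart above every normal one, at log2 0.21 (adjusted p = 0.455) and 0.36 (adjusted p = 0.287).

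The small PP1 inhibitor proteins of the Ppp1r14 group act when phosphorylated. Ppp1r14c (KEPI) had 132, 74.4 and 290.8 in diabetic hearts, against 286.6, 272.9 and 399.1 in normal hearts. Diabetic heart 3 lay within the normal range and the other diabetic hearts far below it (log2 -1.05 ± 0.38, adjusted p = 0.169). Without diabetic heart 3 the fold change was -1.52 and passed, at an adjusted p of 0.0391, and without diabetic heart 2 it was -0.64 with an adjusted p of 0.371. Ppp1r14a (CPI-17), known from smooth muscle, had 54.7, 204.1 and 141 in diabetic hearts, against 181.1, 171.5 and 216.4 in normal hearts. Its groups overlapped through diabetic heart 2 (log2 -0.60 ± 0.35, adjusted p = 0.386), and the fold change was -0.14 without diabetic heart 1 and -0.96 without diabetic heart 2. None of the 4 tested smooth muscle markers passed, and their median was -0.18. Acta2 lay at -0.19, Myh11 at -0.18, Smtn at 0.19 and Tagln at -0.71 (limma adjusted p = 0.257 for Tagln). The summed signal of all 5 on the array was 2599.4 to 2832.3 in diabetic and 2816.1 to 2979.8 in normal hearts. Its part in the Ppp1r14a difference was not tested. Ppp1r14b (PHI-1) lay at -0.04.

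The other tested PP1 partners all overlapped between groups on their brightest probe set. Inhibitor-2, Ppp1r2, averaged 1183 ± 142 in diabetic and 1451 ± 131 in normal hearts (SD, n = 3 each), a log2 fold change of -0.29 ± 0.15 with an adjusted p of 0.33. A dimmer tested probe set of Ppp1r2 had every diabetic heart below every normal one (log2 -0.16, limma adjusted p = 0.583). Ppp1r12a (MYPT1), the myosin-targeting subunit, was at 0.40 ± 0.20 (adjusted p = 0.304) and Ppp1r12c at 0.19. Spinophilin, Ppp1r9b, was at 0.39 ± 0.20 (adjusted p = 0.325). Among nuclear subunits Ppp1r8 (NIPP1) was at 0.36 and Ppp1r10 (PNUTS) at 0.00, while Ppp1r7 (SDS22), a conserved PP1-binding protein, was at 0.03. The p53-binding partners Ppp1r13b (ASPP1) and Ppp1r13l (iASPP) were at -0.17 and 0.21. The glycogen-targeting subunit Ppp1r3d was at -0.29, and Ppp1r3b and Ppp1r3f were too dim to be tested. The remaining tested ones, Ppp1r16a, Ppp1r18, Ppp1r21, Ppp1r35 and Ppp1r36, ran from -0.19 to 0.37. Ppp1r1b (DARPP-32) and Ppp1r9a (neurabin) were also too dim, with signals of at most 63.6 and 13.1 on any array.

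PP2A, built from a scaffold, a catalytic and an exchangeable B subunit, had 11 of 14 genes tested, 3 positive and 8 negative. Its catalytic genes were close to each other. Ppp2ca, the alpha form, had 482.6, 470.7 and 583 in diabetic hearts, against 568, 609.7 and 502.6 in normal hearts. Ppp2cb, the beta form, had 1866.5, 1665.5 and 1786.8 in diabetic hearts, against 1825.6, 1966.1 and 2142.6 in normal hearts. Both overlapped between groups, with log2 fold changes of -0.13 (95% interval -0.48 to 0.22) and -0.16 (-0.48 to 0.17). A further probe set assigned to Ppp2ca together with a second gene was left out, since its signal cannot be given to either.

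The main PP2A scaffold, Ppp2r1a, had 2432.6, 2498.2 and 2444.7 in diabetic hearts, against 2073.5, 2246.4 and 2305.2 in normal hearts. Every diabetic heart was above every normal one, yet the difference was small (log2 0.16 ± 0.13, adjusted p = 0.575). The second scaffold gene, Ppp2r1b, fell below the brightness filter, with 90.9, 112.3 and 97.3 in diabetic hearts and 145.4, 116 and 79.2 in normal hearts.

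The B subunits that place PP2A on its substrates had 6 of 8 tested fold changes negative and a median of -0.15. Ppp2r5b, of the B56 class, had 416.8, 312.3 and 337.7 in diabetic hearts, against 545.7, 438.2 and 553.7 in normal hearts. No array overlapped (log2 -0.51 ± 0.17, adjusted p = 0.138). Ppp2r3a, of the class that binds calcium, had 866.6, 1283.7 and 913.8 in diabetic hearts, against 1381.4, 1474.4 and 1388.6 in normal hearts. Again no array overlapped, with diabetic heart 2 nearest to the normal ones (log2 -0.49 ± 0.18, adjusted p = 0.169). The other B56 genes were at -0.29 for Ppp2r5a, -0.20 for Ppp2r5e, -0.11 for Ppp2r5d and 0.00 for Ppp2r5c, and the B55 genes Ppp2r2a and Ppp2r2d at 0.08 and 0.04. Ppp2r2b and Ppp2r2c, known from brain, were too dim to be tested.

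Calcineurin had 4 of 5 genes tested, 1 positive and 3 negative. Ppp3ca, the alpha catalytic subunit, had 928.9, 710.3 and 910.9 in diabetic hearts, against 1206.5, 1284.8 and 1108.6 in normal hearts. All diabetic hearts were lower (log2 -0.50 ± 0.16, 95% interval -0.86 to -0.14, adjusted p = 0.129). Ppp3cb, the beta subunit, had 1853.4, 966.6 and 1632.8 in diabetic hearts, against 2085.6, 1908.7 and 2241.3 in normal hearts. All diabetic hearts were lower here too, but diabetic heart 2 stood well below the others (log2 -0.53 ± 0.23, adjusted p = 0.251), and without it the fold change was -0.25. Ppp3cc, the gamma subunit, had 286.7, 483.5 and 351.6 in diabetic hearts, against 318.7, 319.8 and 213 in normal hearts. Its groups overlapped and its fold change was positive (log2 0.37 ± 0.23, adjusted p = 0.408), and it was 0.18 without diabetic heart 2 and 0.19 without normal heart 3. Calcineurin B, Ppp3r1, the calcium-binding regulatory subunit, had 1394.9, 1084.5 and 1113 in diabetic hearts, against 1470.2, 1028.4 and 1163.4 in normal hearts. It lay at -0.02 with an interval from -0.43 to 0.39. The second calcineurin B gene, Ppp3r2, known from testis, was too dim to be tested, with 4.9, 10.3 and 51.8 in diabetic and 7.9, 29.3 and 7.4 in normal hearts.

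Set side by side, the median log2 fold change was 0.00 for PP1 (26 tested genes), -0.13 for PP2A (11) and -0.26 for calcineurin (4), against -0.01 for all tested probe sets. The arrays did not overlap for 5 PP1 genes (19.2%), 3 PP2A genes (27.3%) and 2 calcineurin genes (50% of the 4), against 25.7% of all tested probe sets. The order of the medians was not kept under every setting. When all tested probe sets of a gene were averaged, PP2A was the lowest at -0.16, with calcineurin at -0.091. With no brightness filter PP2A was again the lowest at -0.13, with calcineurin at -0.021 and PP1 at -0.022. Without diabetic heart 2 the medians were -0.10 for calcineurin and -0.077 for PP2A. The families were described by these values only and no test between them was made. Their ranges overlapped, with PP1 from -1.05 to 0.44, PP2A from -0.51 to 0.16 and calcineurin from -0.53 to 0.37.

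**Figure D3:**
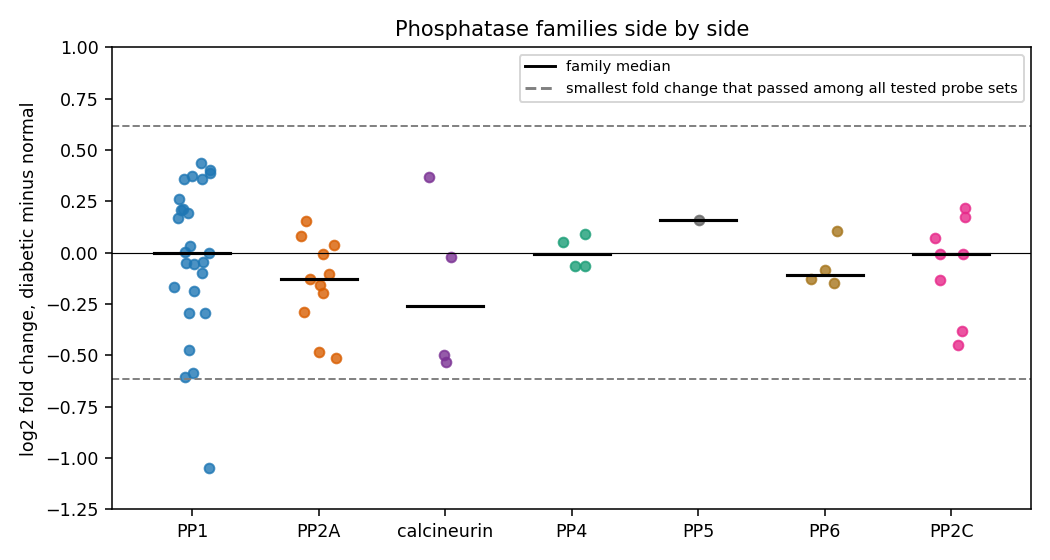
Log2 fold changes of the tested genes of each phosphatase family on the y axis, 1 point per gene, with the family median as a black line. Dashed lines mark 0.62 above and below 0, the smallest fold change that passed among all tested probe sets. The PP1 points spread widest and only Ppp1r14c lies beyond the lines.

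Within a family the balance of catalytic isoforms can be followed per heart as a ratio of signals. All 7 pairs in PP1, PP2A and calcineurin were computed as the difference of log2 signals and tested with a two-sided exact permutation test over the 6 hearts, which cannot go below p = 0.1. The Ppp3ca to Ppp3cc ratio differed by -0.87 on the log2 scale, with every diabetic heart (-0.40, -1.50 and -0.71, normal mean set to 0) below every normal heart (-0.17, -0.09 and 0.26), at an exact p of 0.1 and 0.35 adjusted over the 7 pairs. The Ppp1ca to Ppp1cc ratio differed by 0.59, with diabetic hearts at 0.55, 0.84 and 0.37 above normal hearts at -0.02, 0.33 and -0.31, at the same exact p of 0.1 (adjusted 0.35). The Ppp1cb to Ppp1cc ratio (0.85) and the Ppp3cb to Ppp3cc ratio (-0.90) overlapped between groups, each with an exact p of 0.2. Single hearts moved these differences: without diabetic heart 2 the Ppp3cb to Ppp3cc ratio differed by -0.43 and the Ppp3ca to Ppp3cc ratio by -0.55, and without normal heart 3 the Ppp1cb to Ppp1cc ratio differed by 0.43. The other ratios, Ppp1ca to Ppp1cb (-0.26, exact p = 0.6), Ppp2ca to Ppp2cb (0.03, exact p = 0.8) and Ppp3ca to Ppp3cb (0.03, exact p = 0.9), overlapped too. Since the exact p cannot go below 0.1, no pair could pass at 0.05. The test therefore cannot decide whether the balance of isoforms differed, and the ratios are given as a description only.

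**Figure D4:**
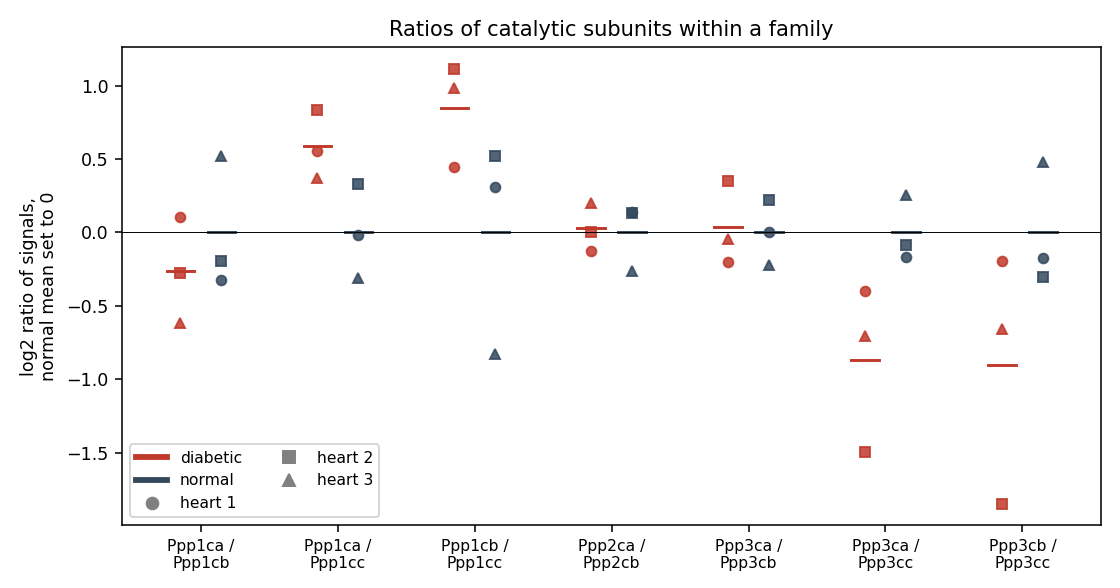
Log2 ratio of the signals of catalytic subunits of one family in each heart on the y axis, with the normal mean of each pair set to 0 and group means as short lines. Point shape gives the heart's number within its own group. Diabetic and normal hearts do not overlap for Ppp1ca to Ppp1cc and for Ppp3ca to Ppp3cc, where diabetic heart 2 is the farthest at -1.50.

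The smaller enzyme families showed less spread. Ppp4c, the PP4 catalytic subunit, had 219.6, 254.5 and 135.6 in diabetic hearts, against 211, 181.6 and 230.2 in normal hearts, and its regulatory subunits Ppp4r1, Ppp4r2 and Ppp4r3b lay at -0.07, 0.05 and 0.09. Ppp5c, which carries its own regulatory repeats and works with the chaperone Hsp90, had 699.4, 850.3 and 663.9 in diabetic hearts, against 563, 747.8 and 666.2 in normal hearts. Ppp6c, the PP6 catalytic subunit, had 417.5, 391.6 and 456.4 in diabetic hearts, against 422.4, 338.9 and 622 in normal hearts. All 3 overlapped between groups, at log2 -0.06, 0.16 and -0.08. The PP6 subunits Ppp6r1, Ppp6r2 and Ppp6r3 lay at -0.15, 0.11 and -0.13, and Ppp4r3a was too dim to be tested.

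Of the 9 PP2C genes 8 were tested, and their median was -0.01. Ppm1k, the mitochondrial phosphatase that activates the branched-chain keto acid dehydrogenase, had 1528.5, 1542.6 and 1334.4 in diabetic hearts, against 1771.3, 1648.1 and 2412.7 in normal hearts. The groups did not overlap, but normal heart 3 stood far above the others (log2 -0.38 ± 0.18, adjusted p = 0.272), and without it the fold change was -0.22. Ppm1g, a nuclear enzyme, had every diabetic heart above every normal one at 0.17 (adjusted p = 0.538). Ppm1a was at 0.22, Ppm1d (Wip1), known from the p53 response, at 0.07, Ppm1f at -0.13, Ppm1b at -0.01, Ppm1j at -0.45 ± 0.28 and Ppm1l, of the endoplasmic reticulum, at -0.01. The Ppm1j fold change was -0.15 without diabetic heart 3 and -0.76 without diabetic heart 2. Ppm1h was too dim to be tested.

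For 11 genes more than 1 probe set was tested, and in 5 of them the probe sets differed in sign. The second Ppp3ca probe set lay at -0.33 (adjusted p = 0.341), on the same side as the brightest, while the second one of Ppp3cb was at -0.06 against -0.53. Ppp2r5c was at 0.00 on its brightest probe set, and at -0.52 on a dimmer one, where the arrays did not overlap (adjusted p = 0.168). Ppm1l was at -0.01 on its brightest probe set and at 0.42 on the other, where every diabetic heart was higher (adjusted p = 0.171). The brightest probe set of Ppp1r12a was at 0.40 and the other at -0.02. For Ppp3r1 these values were -0.02 and 0.25, and for Ppp4r3b 0.09 and -0.24. Which stretch of the transcript each probe set reads is not given in the sources used here.

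**Figure D5:**
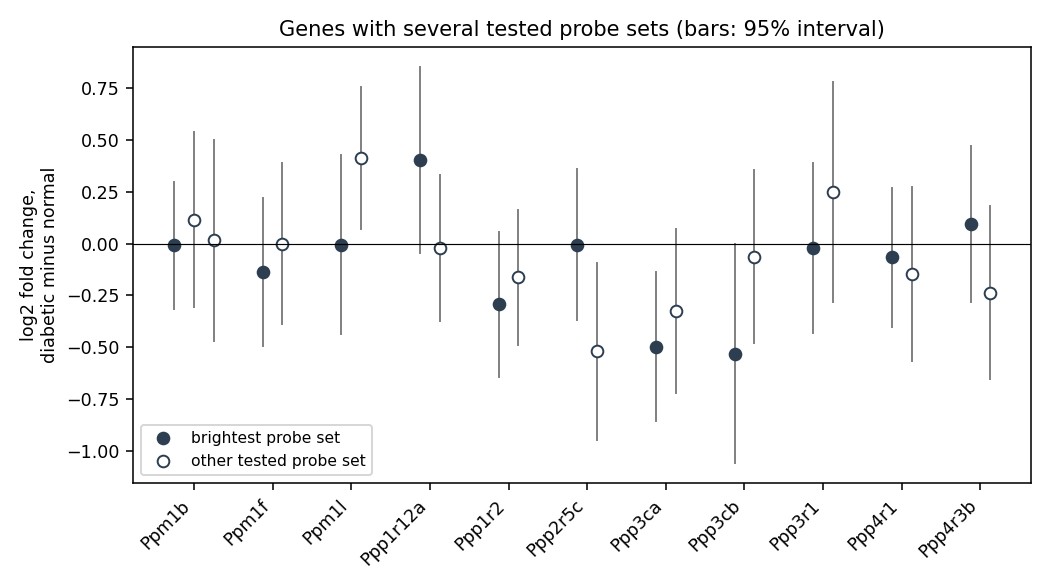
Log2 fold changes of the 11 genes with several tested probe sets, with 95% intervals as bars. Filled points are the brightest probe set of a gene and open points the others. Ppp3ca has both points below 0, as have Ppp1r2, Ppp3cb and Ppp4r1 among others, and the interval of its open point crosses 0. For Ppp2r5c and Ppm1l only the open point lies away from 0.

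Partners of these enzymes gave the same count. Of 13 tested calcineurin and NFAT pathway genes 0 rose and 0 fell, with a median of -0.05. Calm2, 1 of the calmodulin genes, lay at -0.62 ± 0.17 (adjusted p = 0.0927) with no overlap, and Mef2c, a transcription factor downstream of calcineurin, at -0.50 (adjusted p = 0.121). Rcan1, a calcineurin inhibitor, was at -0.05 ± 0.22 (adjusted p = 0.936), and its relative Rcan2 at -0.43 (adjusted p = 0.154). Nfatc3 and Nfatc4 were at -0.16 and 0.09. On the positive side lay also Mef2d at 0.30, Cabin1 at 0.26 and Myoz2 at 0.14. Of 12 genes for PP2A assembly and inhibition none passed either (median -0.02), with Ptpa, the PP2A activator, at -0.36 (adjusted p = 0.36) and the catalytic methylesterase Ppme1 at -0.17. Of 18 tested targets and opposing kinases none passed (median -0.15). Phospholamban, Pln, was at 0.05, the ryanodine receptor Ryr2 at -0.49 (adjusted p = 0.155) and protein kinase C alpha, Prkca, at -0.56 (adjusted p = 0.145). At an unadjusted p under 0.05 limma gave 3 of these 13 (23.1%), 0 of the 12 and 4 of the 18 (22.2%), against 19.9% of all tested probe sets.

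The tissue showed its labelled type. The 7 cardiomyocyte markers on the array were all bright, the dimmest being Ckm with a mean signal of 25066, and 1 of them, Myh6, fell (log2 -1.55). The fold changes of all 7 were negative, with a median of -0.22. The summed signal of these markers was 181323 to 238164 in diabetic and 224806 to 286627 in normal hearts, with overlap. Of 6 fibroblast markers 4 fell (Col1a1, Col1a2, Col3a1 and Lum), and their sum was 20413 to 21670 in diabetic and 31878 to 36727 in normal hearts, without overlap, while Dcn lay at -0.01. The 3 atrial markers (791.5 to 1318.9 in diabetic and 353.2 to 1360 in normal hearts), 4 leukocyte (846.5 to 1169.5 in diabetic and 733.8 to 1009.6 in normal hearts) and 2 red cell markers (16011 to 24859 in diabetic and 19439 to 25746 in normal hearts) overlapped between groups in their sums, and none of them passed. Of 5 skeletal muscle markers the Myh1 probe set rose (log2 1.13), Ckm and Tnni2 did not pass, and Actn3 and Myh2 were too dim to be tested. The Myh1 probe set averaged 16776 in diabetic and 7692 in normal hearts, against 151 and 131 for Tnni2. Whether it reads Myh1 alone was not tested, so its rise is not taken as one of skeletal muscle. No marker was listed at 0. Normal heart 3 was the highest of the 6 arrays for 18 of the 58 tested phosphatase genes (31%), against 20.4% of all tested probe sets. Diabetic heart 2 was the highest for 13 (22.4% against 15.9%) and the lowest for 14 (24.1% against 19.6%). The part of the fibroblast and cardiomyocyte signals, and of these 2 hearts, in the phosphatase values was not tested beyond leaving out single hearts.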

How the data were processed

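The authors deposited signal intensities, 1 value for each probe set in each heart, unlogged and already at a common level: with 2% of probe sets trimmed at both ends, the mean was 500.2 on all 6 arrays. The software that made them is not given in the sources used here, and no detection calls were used. Leaving out 57 controls, 15866 probe sets remained. Names came from the platform annotation, and all 68 member symbols were the same in a rat RefSeq table (GRCr8), which also supplied the promoters.

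Values were taken as log2(intensity + 16), which understates fold changes of dim genes. Those whose mean log2 value lay above the 40th percentile, 9519, entered 1 limma 3.58.1 model (R 4.3.3) with the group alone, moderated by eBayes and adjusted by Benjamini-Hochberg, and passed at an adjusted p under 0.05. Values after ± are SD for signals and SE for fold changes. The number of arrays limits the precision, and p-values measure the spread between these animals. The members and the gene lists (3 of partners, 8 of cell type markers) were chosen with earlier results of these data known. By rule, catalytic, scaffold and calcineurin regulatory genes, and members without overlap and an absolute log2 fold change of at least 0.5, were given per heart. Per-heart values of Ppp1r14a, Ppp1r14c, Ppp1r15a, Ppp1r16b, Ppp2r3a and Ppm1k, and the partner genes named, were chosen after their values were seen. The code was tested on simulated data. Alternatives changed the pseudocount (1 or 64), scaling (quantile or median), brightness filter (none, the 60th percentile or, added after seeing the data, one on linear means), prior (trend or robust), array weighting, blocking by replicate number, the arrays included, the threshold (0.1) and the choice of probe set. Figures were drawn with matplotlib 3.10.9.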

Additional observations from a re-analysis of the deposited data

How the results depend on the processing

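No phosphatase gene was called under any alternative that kept all 6 arrays (627 values of 58 genes), and the adjusted p nearest to the threshold was 0.0609, for Ppp1r16b with the 60th percentile filter. With 1 array left out, 1 of 348 values passed, Ppp1r14c without diabetic heart 3, so 0 to 1 phosphatase genes fell. The number of probe sets changed, 274 with the settings of the report, was 437 with the 60th percentile filter, 527 with an intensity trend, 18 with no filter, 674 at a threshold of 0.1 and 100 to 202 with 1 array left out. It was 100 without diabetic heart 2 and also 100 without normal heart 3. The PP1 median was 0.17 with the 60th percentile filter and -0.036 to 0.079 with 1 array left out. That filter leaves 11 of the dimmer tested members, counted over all families, without a value, Ppm1j and Ppp4c among them. The calcineurin median was -0.021 with no filter, -0.091 with all probe sets of a gene averaged and -0.35 to -0.10 with 1 array left out. Fold changes near 0 changed sign under array weights for Ppp1ca (0.013), Ppp2r5c (0.028) and Ppm1l (0.010), and under quantile normalization for Ppm1b (0.0080) and Ppm1l (0.0074). With 1 array left out the sign changed in 21 genes, whose ranges were Ppm1b (-0.045 to 0.027), Ppm1d (-0.045 to 0.20), Ppm1l (-0.18 to 0.16), Ppp1ca (-0.042 to 0.048), Ppp1r10 (-0.15 to 0.13), Ppp1r12c (-0.046 to 0.36), Ppp1r13b (-0.35 to 0.0061), Ppp1r14b (-0.16 to 0.10), Ppp1r16a (-0.29 to 0.11), Ppp1r18 (-0.25 to 0.15), Ppp1r21 (-0.21 to 0.026), Ppp1r7 (-0.015 to 0.070), Ppp2r2d (-0.077 to 0.16), Ppp2r5c (-0.072 to 0.12), Ppp2r5d (-0.22 to 0.084), Ppp3r1 (-0.13 to 0.12), Ppp4c (-0.24 to 0.18), Ppp4r2 (-0.033 to 0.11), Ppp4r3b (-0.045 to 0.18), Ppp6c (-0.28 to 0.15), Ppp6r1 (-0.25 to 0.0048). Of 24 genes with an absolute log2 fold change of at least 0.2, leaving out some 1 array moved 16 by over 1.5 times. The catalytic ratios, refitted this way as an addition made after seeing the data, kept their sign except Ppp2ca to Ppp2cb (-0.10 to 0.10) and Ppp3ca to Ppp3cb (-0.12 to 0.15), both near 0. The Ppp1ca to Ppp1cb ratio was -0.0035 without normal heart 3. The cause of these shifts was not tested, and some of these fits held fewer arrays or genes.

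Deviations from the group mean correlated weakly between same-numbered diabetic and normal arrays (0.0655, 0.0142 and 0.0158). The highest correlation, 0.0686, was between diabetic heart 3 and normal heart 2. With 3 arrays per group these values cannot decide whether the numbers pair the samples. With the replicate number as a block 183 probe sets changed, 99 risen and 84 fallen, and 0 phosphatase genes. The number of arrays and the lack of detection calls limit what can be said of the dim members.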
